A study of Mus musculus with 4 samples.

Results

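Described here are 39 genes of the cell division cycle, 20 that act in S phase and 19 that act in G2 and mitosis, in regulatory T cells (Tregs) from the livers of young mice. The genes were chosen as a list of names, with earlier results of these data known, and all 39 are among the 24452 genes of the deposited table, whose symbols in capitals are kept here. Tregs are CD4 T cells that carry the transcription factor FOXP3 and restrain other immune cells. The study compared Altre-WT Tregs (wild type) with Altre-KO Tregs (knockout), in which the long non-coding RNA Altre was knocked out, with 2 RNA-sequencing libraries per genotype. The labels give liver as the tissue and name no treatment, strain, sex or exact age, and they do not say how the allele was made or whether a library is 1 mouse or a pool. Replicates may therefore be technical, and p-values then measure the spread between these libraries. The question is whether the transcripts of DNA replication and of mitosis differ between the genotypes, and whether the earlier and the later phase differ from each other.

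A dividing cell copies its DNA once. In G1 the loading factors CDC6 and CDT1 place rings of MCM2 to MCM7 on replication origins, and in S phase CDC45 and the GINS complex turn these rings into moving helicases, behind which PCNA clamps the polymerases to DNA. RRM1, RRM2 and TYMS supply the building blocks of DNA. In G2 the kinase CDK1, bound to cyclins A and B, starts mitosis, motor proteins and Aurora kinases build and correct the spindle, and CDC20 and UBE2C serve the ubiquitin ligase that ends mitosis. Transcription follows the same order: E2F factors switch on many S phase genes, and promoters of G2 and mitosis genes often carry a CHR element, bound by the DREAM and MuvB complexes, near CCAAT boxes bound by NF-Y. Resting T cells hold most of these transcripts at low levels.

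Promoter sequence, which no expression value entered, was searched for the letters of E2F sites, CHR elements and CCAAT boxes. Such letters do not give the timing of transcription. RefSeq promoter windows of 300 bases (250 before and 50 after the annotated start, build GRCm38.p6) matched 33 of the 39 members, 17 of S phase and 16 of G2 and mitosis. They were searched on both strands for the E2F sites TTTCCCGC, TTTCGCGC, TTTGCCGC and TTTGGCGC, the CHR letters TTTGAA and TTTAAA, and CCAAT, with overlapping matches all counted. A member counted once if any of its windows matched, while the background was counted per window, over 32851 windows of 27025 genes. This favours members with more than 1 window, such as MCM7 and FEN1. An E2F site was found in 7 of 17 S phase members (41.2%) and in 1 of 16 G2 and mitosis members (6.25%), CDK1, against 2.26% of all 32851 windows in the table. The CHR letters were found in 14 of 16 G2 and mitosis members (87.5%), in 6 of 17 S phase members (35.3%) and in 27.6% of all windows. A CHR match and a CCAAT box stood in the same window in 13 of 16 G2 and mitosis members (81.2%), 4 of 17 S phase members (23.5%) and 10.7% of all windows. Most of the short CHR letters' matches lie in windows of genes outside the cell cycle, and a match is a description of letters, not a mapped binding site.

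The 4 stretches below come from the most abundant S phase member, the tested S phase and mitosis members with the highest log2 fold change, and the proliferation marker MKI67. MCM6 and MKI67 follow the contrast, while RRM2 carries no E2F match and CDK1 carries both E2F and CHR matches. Each runs 5′ to 3′ on the gene's strand over the 220 bases before the RefSeq start, with matches in capitals. They are MCM6 (chr1:128359706-128359925, minus strand), RRM2 (chr12:24708034-24708253, plus strand), CDK1 (chr10:69352913-69353132, minus strand) and MKI67 (chr7:135716380-135716599, minus strand).
MCM6: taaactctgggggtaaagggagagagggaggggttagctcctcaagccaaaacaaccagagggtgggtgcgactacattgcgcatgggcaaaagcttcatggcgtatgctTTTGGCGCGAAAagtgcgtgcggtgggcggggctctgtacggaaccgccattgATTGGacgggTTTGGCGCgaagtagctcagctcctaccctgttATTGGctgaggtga
RRM2: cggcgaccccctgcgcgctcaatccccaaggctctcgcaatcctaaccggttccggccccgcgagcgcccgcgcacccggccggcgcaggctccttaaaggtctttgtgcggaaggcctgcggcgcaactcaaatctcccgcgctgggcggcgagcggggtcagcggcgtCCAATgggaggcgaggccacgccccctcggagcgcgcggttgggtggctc
CDK1: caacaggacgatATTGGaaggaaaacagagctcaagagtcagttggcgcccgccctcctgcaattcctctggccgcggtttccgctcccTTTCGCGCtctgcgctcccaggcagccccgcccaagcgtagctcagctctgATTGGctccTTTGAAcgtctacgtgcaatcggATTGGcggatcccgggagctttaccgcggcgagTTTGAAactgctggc
MKI67: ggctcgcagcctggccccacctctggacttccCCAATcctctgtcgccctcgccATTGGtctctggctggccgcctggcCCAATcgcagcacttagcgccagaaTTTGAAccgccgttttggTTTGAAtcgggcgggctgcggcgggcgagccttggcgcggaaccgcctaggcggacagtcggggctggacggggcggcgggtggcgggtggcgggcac
In MCM6 a pair of overlapping E2F matches begins 110 and 106 bases before the start, and another follows at 47, with no CHR match. In CDK1 a single E2F match at 131 bases is followed by CHR letters at 71 and 15 bases, each with a reversed CCAAT nearby. MKI67 has CHR letters at 116 and 98 bases and no E2F match. RRM2 has a CCAAT box at 50 bases and no E2F match, and its CHR letters begin at the start itself, just beyond the stretch shown.

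**Figure D1:**
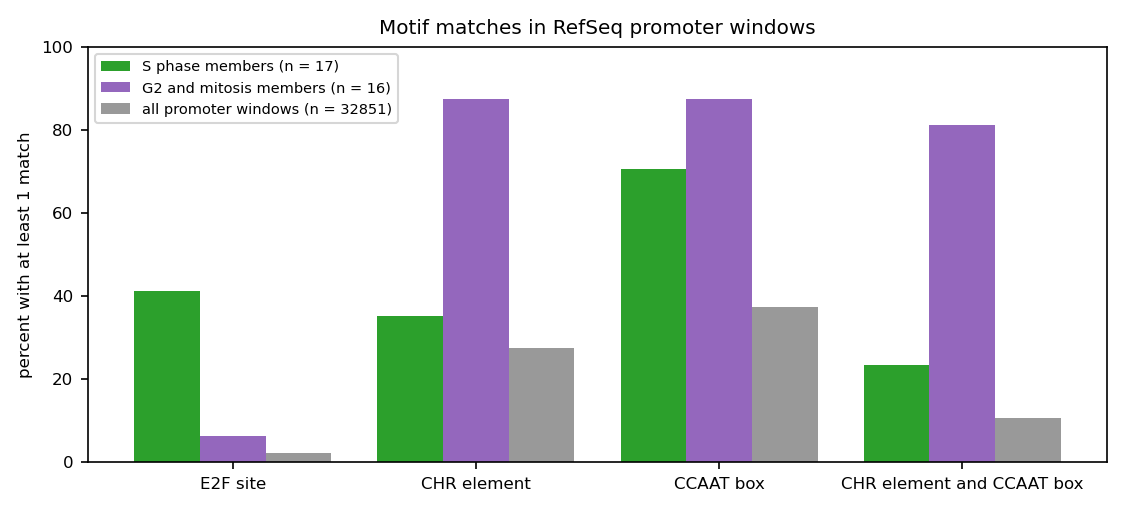
Percent of S phase members (17), of G2 and mitosis members (16) and of all promoter windows (32851) with at least 1 match to each motif on either strand, on an axis from 0 to 100%. E2F matches are at 41.2% among S phase members, and windows with both CHR letters and CCAAT at 81.2% among G2 and mitosis members.

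Levels are given in CPM, reads scaled by the authors so that every library has an equal total. Pairs of values name wild-type libraries 1 and 2 first and knockout libraries 1 and 2 after "against". The steps between low values show what 1 read is worth, 0.306 to 0.547 CPM, and imply 1828773 to 3266132 reads on listed genes per library. The level of Altre itself was not analysed here. Knockout library 1 had the most reads on listed genes and stood apart with 32.8% of its reads on them, where the others had 18.8% to 21.5%. Treg markers summed to 2447 to 2607 CPM per library, and FOXP3 lay at 160.4 and 140.4 CPM against 79.5 and 162 CPM. Of markers of other cell types, 5 of 7 hepatocyte genes were at 0 in all 4 libraries and the others together at 1.69 CPM or less. The sums were 24.6 to 39.4 CPM over 6 CD8 T and NK cell markers, 149 to 289 CPM over 8 B and plasma cell markers, most of it JCHAIN, and 135 to 253 CPM over 8 myeloid markers. The 9 erythroid markers summed to 100.3 to 113 CPM, nearly all of it TFRC, a transferrin receptor gene that activated T cells also use, and the 7 endothelial and stellate markers to 175 to 224 CPM, mainly PECAM1.

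No member passed the test between genotypes. Genes were tested with limma on log2(CPM + 1) where at least 2 libraries reached 4.22 CPM, about 10 reads, which kept 10486 genes and 33 members, 18 of S phase and 15 of G2 and mitosis. At a Benjamini-Hochberg adjusted p of 0.05 over all tested genes, 0 of 33 members were called, where 0.0381% of all tested genes were called. Every tested member had a limma adjusted p of 0.999, and the 6 members below the filter were not tested. At an unadjusted limma p under 0.05 stood 1 member, RRM2, against 3.66% of all tested genes, and limma-voom on the estimated reads also called 0 members and put 2 under that unadjusted level. In the authors' deposited table all 39 members have an adjusted p of 1, and the lowest unadjusted p is 0.262, for MCM4. In bulk RNA, more dividing cells and more of a transcript per dividing cell cannot be told apart.

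Directions were mixed. Of S phase members 8 of 18 had a log2 fold change (knockout minus wild type) above 0 and of G2 and mitosis members 9 of 15, where 47.9% of all tested genes did. Over all listed members, filtered or not, mean CPM was higher in knockout for 9 of 20 and 9 of 19. Both knockout libraries lay above both wild-type libraries in 4 of 18 tested S phase members and 4 of 15 tested G2 and mitosis members, where 14.7% of all tested genes did. Both lay below in 1 and 2 members, where 16.1% of all tested genes did. With members below the filter included, both lay above in 4 of 20 S phase and 5 of 19 G2 and mitosis members, and below in 1 and 4. No matching share over all listed genes was computed. The members this added, CCNB1, PLK1 and UBE2C, had 1 to 12 reads. AURKB, among the tested members with both above, passed the filter through its knockout values alone. The difference between genotypes was larger than both differences between replicates in 6 of 33 members (18.2%), against 19.5% of all tested genes. The median log2 fold change was -0.021 over tested S phase members, 0.083 over tested G2 and mitosis members and -0.013 over all tested genes. With median-of-ratios size factors the medians of S phase members and of all tested genes both moved above 0, to 0.0086 and 0.017.

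**Figure D2:**
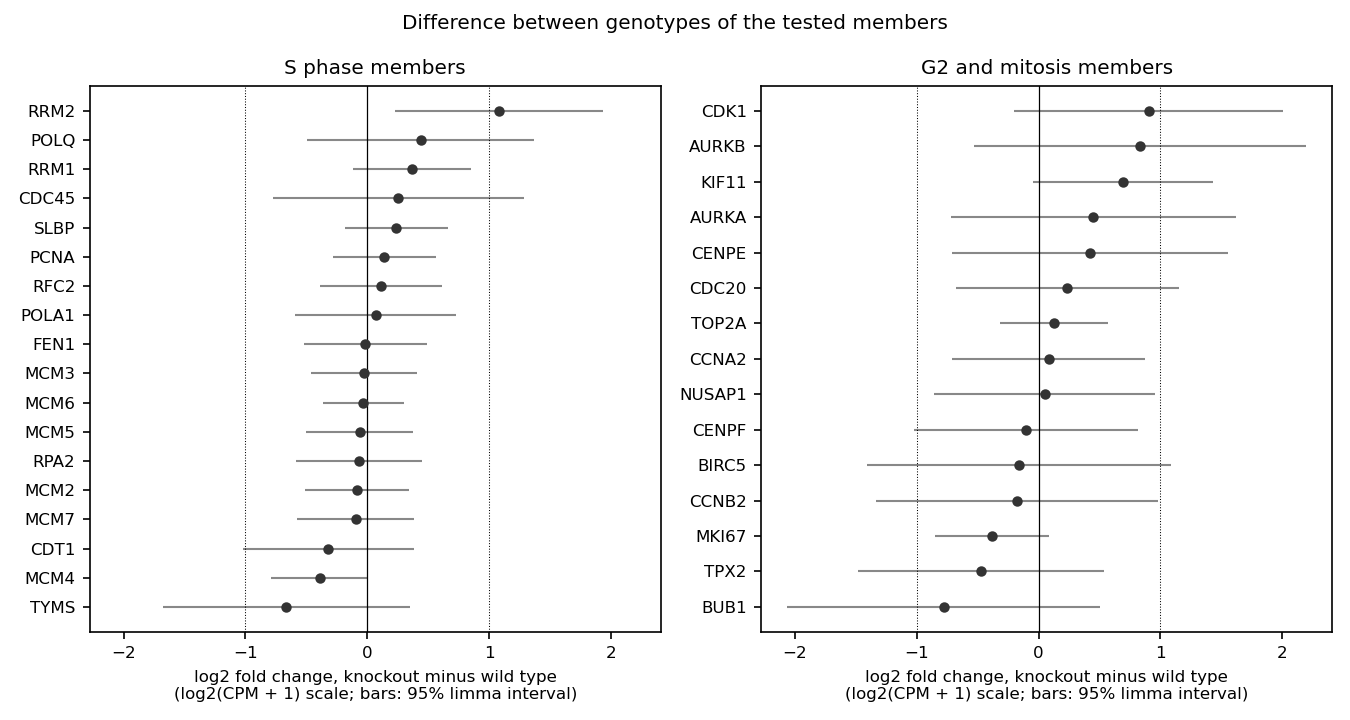
Log2 fold change, knockout minus wild type computed from log2(CPM + 1), of the 18 S phase and 15 G2 and mitosis members tested, with 95% limma intervals as bars and dotted lines at a 2-fold difference. RRM2, at 1.08, has the only interval clear of 0, and the intervals of G2 and mitosis members are wider.

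Of 8 tested origin licensing and helicase genes, 1 had a log2 fold change above 0 and 7 below, where 47.9% of all tested genes were above. They ran from -0.39 (MCM4) to 0.25 (CDC45). Of the 7 below, only MCM4 had genotypes that did not overlap, so its sign could not change when a library was left out. The others changed sign without at least 1 library. MCM2 was at 83.7 and 68.1 CPM against 69.2 and 73.2 CPM, and MCM5 at 88.6 and 77.3 CPM against 96.1 and 65.2 CPM. In both genes the genotypes overlapped, with log2 fold changes of -0.083 (95% interval -0.51 to 0.34) and -0.063 (-0.50 to 0.38). MCM6, MCM3 and MCM7 had log2 fold changes of -0.032, -0.026 and -0.095. MCM4, another subunit of the same ring, was at 125.2 and 100.9 CPM against 78.4 and 93.1 CPM. It was the 1 S phase member with both knockout libraries below both wild-type libraries, by a narrow gap, and had a log2 fold change of -0.39 (SE 0.19, limma adjusted p = 0.999). As a share of the CPM of MCM2 to MCM7 it ran from 13.4% in knockout library 1 to 20.04% in wild-type library 1, and wild-type library 2 and knockout library 2 were alike at 17.3%. CDC45, the helicase activator, lay at 6.02 and 6.73 CPM against 7.96 and 7.62 CPM, or 11 and 16 reads against 26 and 18. CDT1 was at 38.3 CPM in wild-type library 1 and between 18.6 and 25.7 CPM in the other 3 libraries. CDC6 (2.54 to 3.78 CPM) and GINS2 (2.10 to 2.73 CPM) lay below the filter in all libraries.

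Replication fork genes showed a spread between the knockout libraries as wide as the difference between genotypes. PCNA, the sliding clamp, was at 89.1 and 90.4 CPM against 120.3 and 81.3 CPM. Knockout library 1 was highest and knockout library 2 lowest, so the genotypes overlapped, and the log2 fold change was 0.14 (95% interval -0.28 to 0.56), or -0.14 without knockout library 1. The clamp loader gene RFC2 (53.6 and 55.9 against 75.3 and 46.6 CPM) and the flap endonuclease gene FEN1 (50.9 and 48.3 against 59.1 and 40.6 CPM) had the same order of knockout libraries around wild type. RPA2, of the complex that coats single-stranded DNA, stayed between 37.4 and 42.0 CPM in all libraries. POLA1, the catalytic subunit of the priming polymerase, was at 21.3 and 41.2 CPM against 37.7 and 25.8 CPM, so each genotype's spread covered the other's mean. POLQ, a polymerase of end-joining repair, was at 7.11 and 9.25 CPM against 9.49 and 13.6 CPM (log2 fold change 0.44, SE 0.45). Of S phase members 10 of 18 (55.6%) had their highest value in knockout library 1, as did 30.7% of all tested genes.

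RRM2, the regulated small subunit of ribonucleotide reductase, had the largest log2 fold change of the 33. It was at 8.75 and 6.73 CPM against 17.8 and 16.9 CPM, or 16 and 16 reads against 58 and 40. The genotypes did not overlap, and the replicates of each were close together. The log2 fold change was 1.08 (SE 0.41, 95% interval 0.23 to 1.93, limma adjusted p = 0.999), or 2.24-fold on the CPM means, and stayed between 0.91 and 1.25 without each library in turn. RRM1, the large subunit of the same enzyme, was at 44.3 and 72.7 CPM against 76.2 and 71.1 CPM, with wild-type library 1 alone low. RRM2 came to 19.8% and 9.25% of the CPM of RRM1 in wild type and to 23.3% and 23.8% in knockout. TYMS, which makes thymidylate, went the other way in log2 fold change (-0.66, SE 0.49), at 7.66 and 16.4 CPM against 8.88 and 5.08 CPM, with overlapping genotypes. SLBP, which binds the stem-loop of histone mRNA, was at 63.4 and 83.7 CPM against 86.7 and 85.5 CPM (log2 fold change 0.24, SE 0.20).

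**Figure D3:**
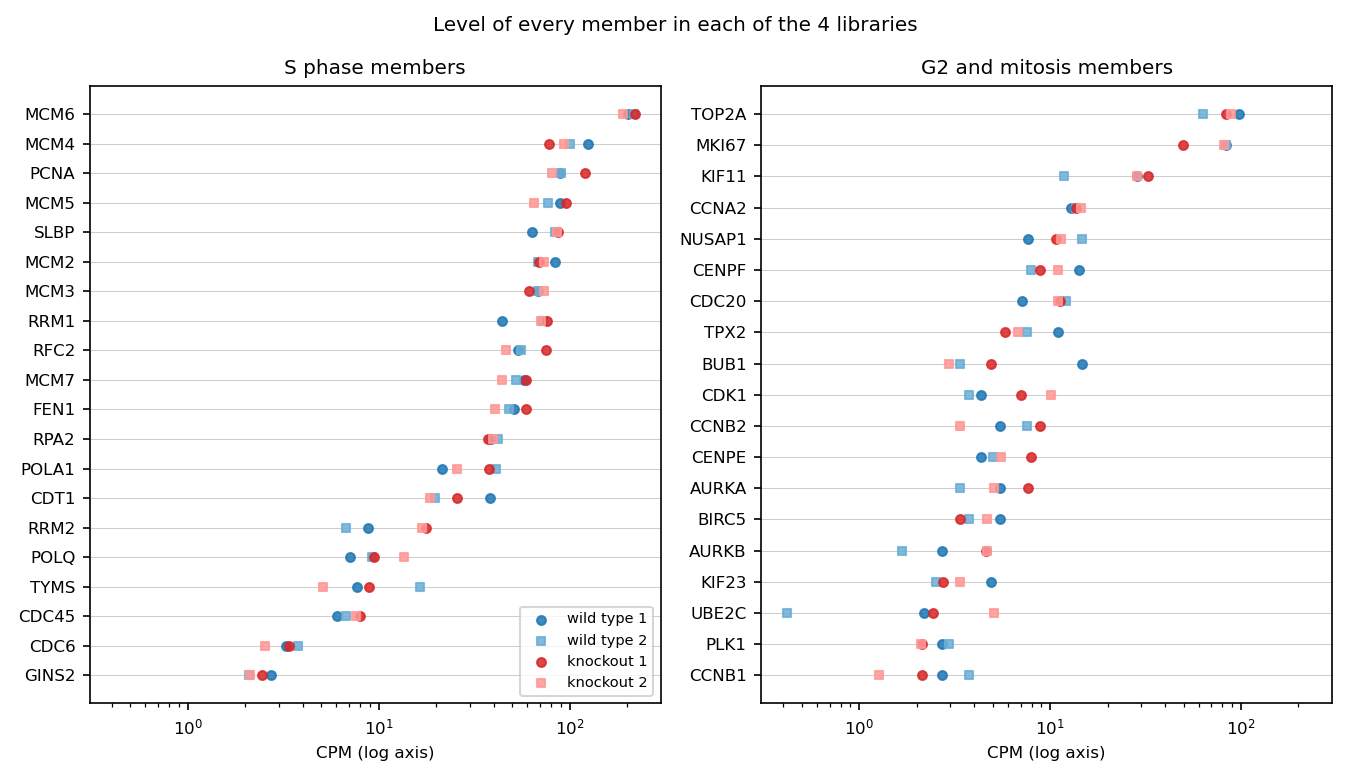
CPM of every member in the 4 libraries on a log axis, ordered by mean, with blue symbols for wild type and red for knockout, circles for replicate 1 and squares for replicate 2. Both RRM2 values of the knockout, 17.8 and 16.9 CPM, lie right of both wild-type values, while most members show mixed colours.

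Among the 15 tested G2 and mitosis members, CDK1, the kinase of mitotic entry, had the largest positive log2 fold change, though AURKB exceeded it with a pseudocount of 0.1 (1.07 against 1.04) and with limma-voom (1.05 against 0.97). It was at 4.37 and 3.78 CPM against 7.04 and 10.2 CPM, or 8 and 9 reads against 23 and 24. The genotypes did not overlap, and the log2 fold change was 0.90 (SE 0.53, 95% interval -0.20 to 2.01, limma adjusted p = 0.999). Its cyclin partners differed among themselves, and their difference from CDK1 was not tested. CCNA2 was at 12.9 and 13.6 CPM against 13.7 and 14.5 CPM, with both knockout values above by a small step (log2 fold change 0.083, 95% interval -0.71 to 0.88), and CCNB2 was at 5.47 and 7.57 CPM against 8.88 and 3.39 CPM. CCNB1 lay below the filter, at 2.73 and 3.78 CPM against 2.14 and 1.27 CPM, from 3 to 9 reads, with both knockout values below wild type.

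MKI67 and TOP2A, a coat protein of mitotic chromosomes and the enzyme that untangles DNA, gave 26.1% and 29.1% of all G2 and mitosis CPM. MKI67 was at 83.7 and 83.2 CPM against 49.9 and 81.3 CPM. Both knockout values were below wild type, but knockout library 2 only by a small step, and the log2 fold change was -0.38 (SE 0.23, limma adjusted p = 0.999), or -0.037 without knockout library 1. TOP2A was at 97.3 and 63.5 CPM against 83.3 and 88.5 CPM, so both knockout libraries lay between the wild-type ones (log2 fold change 0.13, SE 0.21). MKI67 as a percent of TOP2A ran from 59.9% in knockout library 1 to 131% in wild-type library 2, with the other libraries at 86.0% (wild type) and 91.9% (knockout). Between these 2 markers of dividing cells the order of libraries thus differed.

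The mitotic kinases and their partners were sparse. AURKB, the kinase of the chromosomal passenger complex, was at 2.73 and 1.68 CPM against 4.59 and 4.66 CPM, from 4 to 15 reads. It passed the filter through its knockout values alone, so its log2 fold change of 0.83 (SE 0.66) is partly fixed by the filter. BIRC5, a subunit of the same complex, was between 3.37 and 5.47 CPM with overlapping genotypes. AURKA, the centrosomal kinase, was at 5.47 and 3.36 CPM against 7.65 and 5.08 CPM. PLK1 lay below the filter at 2.73 and 2.94 CPM against 2.14 and 2.12 CPM, from 5 to 7 reads, with both knockout values below wild type.

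Spindle and kinetochore genes went both ways. KIF11, the motor that pushes spindle poles apart, was at 28.4 and 11.8 CPM against 32.5 and 28.4 CPM. Wild-type library 2 alone was low, and the log2 fold change of 0.69 (SE 0.36, limma adjusted p = 0.999) was 0.091 without it. TPX2, an activator of AURKA, was at 10.9 and 7.57 CPM against 5.82 and 6.77 CPM (log2 fold change -0.47, SE 0.49), with both knockout values below. NUSAP1 was between 7.66 and 14.7 CPM, both from wild type, and KIF23, of the cytokinesis motor, did not pass the filter (2.52 to 4.92 CPM). BUB1, a kinase of the spindle checkpoint, was at 14.8 and 3.36 CPM against 4.90 and 2.96 CPM. Its log2 fold change of -0.78 (SE 0.62), the lowest of the tested members, rested on wild-type library 1 and was 0.15 without that library. CENPE, the kinetochore motor, was at 4.37 and 5.04 CPM against 7.96 and 5.50 CPM, and CENPF overlapped at 14.2 and 7.99 against 8.88 and 11.01 CPM. Of the mitotic exit genes, CDC20 was at 7.11 and 12.2 CPM against 11.3 and 11.01 CPM. UBE2C did not pass the filter, at 2.19 and 0.42 CPM against 2.45 and 5.08 CPM, where the lowest value is 1 read, with both knockout values above by a small step.

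The precision differed between the phases. Members of S phase had a median of 110 reads in their median library and G2 and mitosis members 14. The 95% interval lay within a 2-fold difference either way for 13 of 18 S phase members and for 4 of 15 G2 and mitosis members, against 69.5% of all tested genes. For the other members a 2-fold difference lay inside the interval in at least 1 direction. Levels per kilobase used the union of annotated exons, which can be longer than the transcript made, so comparisons between genes are rough. On this scale mean levels had medians of 9.88 CPM per kb over the 20 S phase members and 1.49 over the 19 G2 and mitosis members. Mean levels ran from GINS2 (0.574) to MCM6 (44.3) in S phase and from KIF23 (0.43) to TOP2A (9.22) in G2 and mitosis. The 6 MCM subunits, which form 1 ring, spanned 4.19-fold on this rough scale, from MCM2 at 10.6 to MCM6 at 44.3 CPM per kb.

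Summed over all members, neither phase differed between the genotypes by more than its replicates did. S phase members summed to 1060 and 1082 CPM in wild type and to 1152 and 996.2 CPM in knockout, with means of 1071 ± 15.1 and 1074 ± 110.04 (SD, n = 2). G2 and mitosis members summed to 317 and 253 CPM against 270.01 and 301 CPM, with means of 285 ± 45.7 and 286 ± 22.0 (SD, n = 2). Log2 ratios of these means were 0.0042 and 0.0022, and both differences of means were smaller than the SDs. Without MKI67 and TOP2A, the sums of the other 17 were 136 and 106 CPM against 137 and 131 CPM.

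The ratio of the phases paired libraries across genotypes. G2 and mitosis CPM came to 29.9% of S phase CPM in wild-type library 1 and 30.2% in knockout library 2, and to 23.4% in both wild-type library 2 and knockout library 1. The mean log2 ratio was -1.92 ± 0.25 in wild type and -1.91 ± 0.26 in knockout (SD, n = 2), a difference of 0.0090, and 2 libraries against 2 cannot give an exact two-sided permutation p under 0.333. Summed per kilobase on the same rough scale, S phase members were 4.68 to 5.62 times as high as G2 and mitosis members, lowest in knockout library 2. The myeloid marker sum ran the same way as the share of S phase, at 253 and 244 CPM in wild-type library 2 and knockout library 1 and at 150 and 135 CPM in wild-type library 1 and knockout library 2. The B and plasma cell sum was also higher in wild-type library 2 and knockout library 1, at 289 and 204 CPM in the first pair and 149 and 174 CPM in the other. Their part in the ratio was not tested.

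**Figure D4:**
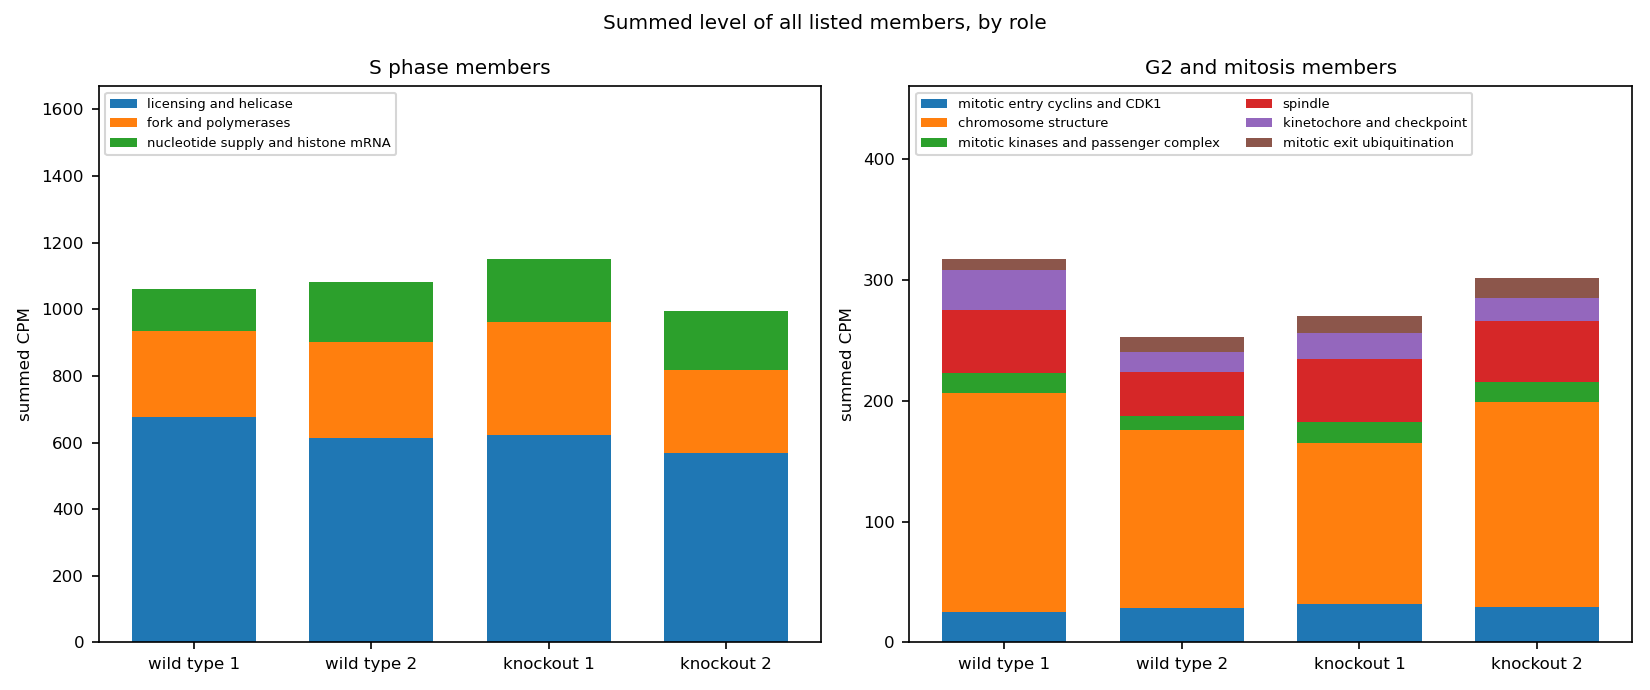
Summed CPM of all 20 S phase members (left) and all 19 G2 and mitosis members (right) in each library, on axes from 0 with different ranges, split by role. S phase sums lie between 996.2 and 1152 CPM, and G2 and mitosis sums between 253 CPM in wild-type library 2 and 317 CPM in wild-type library 1.

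The S phase median depended on single libraries. It was 0.21 without knockout library 2 and -0.14 without knockout library 1, and 0.027 and 0.0047 without wild-type library 1 or 2. The G2 and mitosis median ran from 0.082 to 0.15. The log2 fold change changed sign without at least 1 library for 10 of 18 S phase members and 7 of 15 G2 and mitosis members. The share over all tested genes was not computed, so these counts do not set the members apart from other genes. In members whose genotypes did not overlap the sign could not change, and only the size moved. Among these were RRM2 (0.91 to 1.25), CDK1 (0.67 to 1.14) and MCM4 (-0.55 to -0.24).

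**Figure D5:**
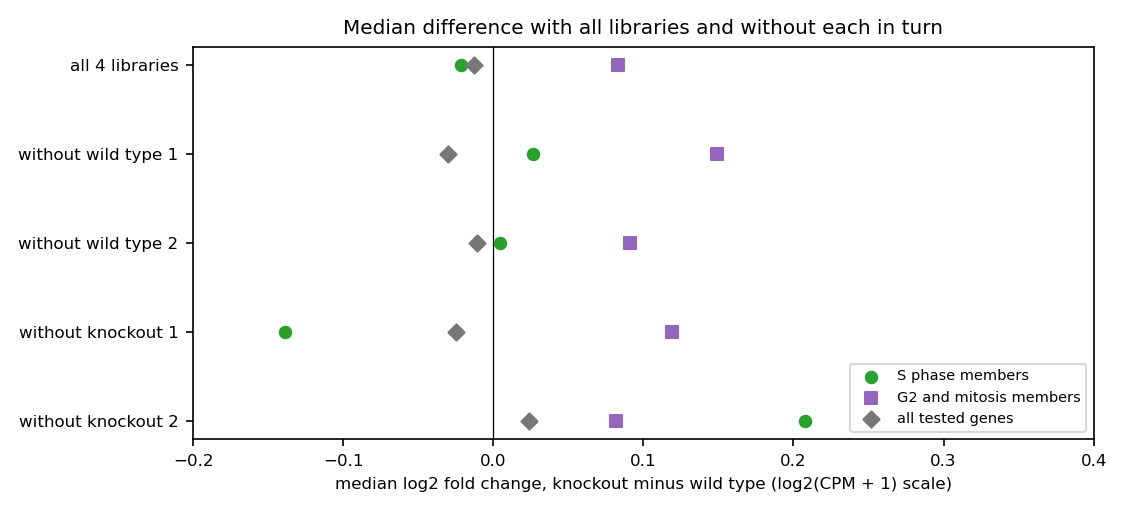
Median log2 fold change (knockout minus wild type) of tested S phase members, tested G2 and mitosis members and all tested genes, with all 4 libraries and without each in turn. The S phase median runs from -0.14 to 0.21, on either side of the other medians.

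Differences of the members overlapped between promoter classes. Of the 8 members with an E2F site 7 were tested, with log2 fold changes from -0.32 (CDT1) to 0.90 (CDK1) and a median of -0.032. Of 18 with CHR letters and no E2F site 14 were tested, from -0.38 (MKI67) to 1.08 (RRM2), with a median of 0.18. The 7 with neither ran from -0.78 (BUB1) to 0.37 (RRM1).

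Genes of the same pathways outside the list are given for comparison. Of 168 such genes in 9 lists, 136 were tested, 70 with log2 fold changes above 0 and 66 below, with a median of 0.013, and 0 passed over all tested genes (5 of 136 at an unadjusted limma p under 0.05, where 3.66% of all tested genes were). The other 46 S phase genes tested split 23 to 23, the other 72 G2 and mitosis genes 34 above to 38 below, and the 18 E2F, RB and MuvB regulators 13 above to 5 below. Each list's member with the smallest p is given as a value. In replication these were the origin recognition gene ORC6 (2.73 and 15.6 against 12.6 and 16.5 CPM), the polymerase subunit gene POLD3 (53.6 and 65.2 against 43.5 and 39.8 CPM) and the CTP synthase gene CTPS (19.7 and 21.02 against 41.6 and 29.6 CPM). Among regulators it was CDK2, the kinase of S phase entry, at 30.1 and 33.2 CPM against 62.8 and 38.5 CPM. In mitosis they were the checkpoint gene BUB3 (99.0 and 81.1 against 128 and 107 CPM), the centromere chaperone gene HJURP (59.3 and 76.2 against 37.2 and 51.9 CPM), the motor gene KIF22 (3.83 and 2.94 against 9.49 and 6.35 CPM), the condensin gene NCAPG (7.11 and 5.06 against 11.2 and 13.9 CPM) and ANAPC2 of the anaphase-promoting complex (38.8 and 32.8 against 16.5 and 38.5 CPM). All 9 had a limma adjusted p of 0.999.

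Some members share sequence with other genes. In GENCODE M21 on GRCm38, FEN1 (chromosome 19, 10199132 to 10204169) shares 78.8% of its exonic bases with an antisense gene, GINS2 (chromosome 8, 120578633 to 120589304) 67.3% with GSE1 on the other strand, and RFC2 (chromosome 5, 134581366 to 134601805) 15.1% with LAT2. Whether the authors' counting used strand is not given in the sources used here. Elsewhere in the genome, near-identical copies of at least 95% identity over at least 26.2% of the longest transcript exist for CCNB1, MCM7, PCNA and CDC6. These members had whole reads in all 4 libraries, and how the authors' counting assigned reads that match a copy is not given. CCNA2, which shares exonic bases with EXOSC9 on the other strand, was the 1 member with fractional reads. The other members, 38 of 39, had whole reads in all 4 libraries. What this means for the use of strand in counting was not tested. RRM2 (chromosome 12, 24708241 to 24714146), CDK1 (chromosome 10, 69335146 to 69352938), MCM4 (chromosome 16, 15623897 to 15637400) and MKI67 (chromosome 7, 135689784 to 135716361) are protein-coding genes. A partial copy of RRM2 covers 19.1% of its transcript at 95.5% identity.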

How the data were processed

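RNA of liver Tregs, 2 libraries per genotype, was measured by RNA sequencing; per the labels' protocols RNA came from a micro-scale column kit and libraries from a SMARTER mRNA kit. The tools DESeq2, STAR and cutadapt and the build mm10 are named, without roles or versions, per the submitters' processing notes. The counter and gene models were not stated. The deposited table holds RPM per library (as read from the values, with 0.0001 added), CPM scaled by the authors to the same total over listed genes, the authors' mean signal per genotype, their log2 fold change, and their p-value and adjusted p-value from an unnamed test. Reads per gene were estimated from the smallest common step of the RPM values; 92.9% to 93.8% of values came out whole within 0.02 of a read, so values were not treated as counts. Limma (version 3.58.1, R 4.3.3) with a variance trend was fitted on log2(CPM + 1) over the 10486 genes with at least 4.22 CPM in at least 2 libraries, with genotype as the only term, Benjamini-Hochberg adjustment over all of them and a threshold of 0.05. The fit was tested on simulated data with the same dispersion for every gene and no outlying library, which the real libraries need not follow. Fold changes on this scale understate low genes, and intervals lean on the trend (20.8 prior degrees of freedom). Sequence copies were searched with blastn 2.17.0, and figures drawn with matplotlib 3.10.9. Per-kilobase levels use the union of GENCODE M21 exons.

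The members and lists were chosen with earlier results of these data known. Values per library are given for a panel of 8 members and for tested members whose knockout values both lay on one side of wild type, up to 6 per direction and phase by smallest p; other members are given by value or range. In each other pathway list the tested gene with the smallest p is named. Alternatives covered the pseudocount (0.1 and 4), the filter (none, or a mean of at least 20 CPM), median-of-ratios and upper-quartile scaling, limma-voom, the replicate number as a block and leaving out each library.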

Additional observations from a re-analysis of the deposited data

How the results depend on the processing

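With fewer than 20 reads behind many mitotic members and 2 libraries per genotype, precision was low, and 0 members passed under every alternative run. The genes past the threshold over all tested numbered 4, 2 with a pseudocount of 0.1 and 6 with the replicate block, and without each library between 6 and 16 (16 without wild-type replicate 2, 14 without knockout replicate 2); a lone library is assumed to vary like the others. The median log2 fold change of S phase members, -0.021, was 0.0086 with median-of-ratios size factors, which moved the median of all tested genes from -0.013 to 0.017, and between -0.14 and 0.21 without each library. That of G2 and mitosis members, 0.083, stayed between 0.049 and 0.13 under the other settings and between 0.082 and 0.15 without each library. The log2 ratio of summed S phase CPM, 0.0042, was -0.0024 with upper-quartile scaling and between -0.10 and 0.11 without each library. That of G2 and mitosis, 0.0022, was -0.0014 with upper-quartile scaling and between -0.15 and 0.18 without each library. Upper-quartile scaling also moved the median of all tested genes, to -0.017. The difference of the log2 ratio of the phases, 0.0090, was 0.10 as a difference of medians and between -0.17 and 0.19 without each library. Over all tested members, with no share over all tested genes computed, 10 of 18 in S phase and 7 of 15 in G2 and mitosis changed sign without at least 1 library. Of the 8 members of the fixed panel these were PCNA without knockout replicate 1 (range -0.14 to 0.42 over the libraries left out), MCM2 without wild-type replicate 1 (-0.23 to 0.063), MCM5 without wild-type replicate 1 (0.034) or knockout replicate 2 (-0.34 to 0.21), and TOP2A without wild-type replicate 2 (-0.18 to 0.43). The cause was not tested. The labels tie same-numbered libraries by number only, and their deviations from the group means had a correlation of -0.010 over 10486 genes. With the replicate block the medians of both phases were the same, -0.021 and 0.083, and 0 members were called.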
